A study of Homo sapiens with 12 samples.

Results

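The genes of serine synthesis and folate one-carbon metabolism were examined for their response to the peptide SAHM1 in KOPT-K1 and HPB-ALL cells, both grown from T-cell acute lymphoblastic leukaemia. The set holds 10 genes of 19775 measured. They were grouped by function, with earlier results of these data known, and are PHGDH, PSAT1, PSPH, SHMT1, SHMT2, MTHFD1, MTHFD2, MTHFD1L, ALDH1L2 and TYMS. All 10 were measured, through 23 of the 54675 probe sets of the array, each annotated with that 1 gene symbol. A further 5 probe sets that name a member together with other genes are given separately.

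RNA from 12 cultures was hybridised to Affymetrix human U133 Plus 2.0 arrays, 1 culture per array and 3 per group. The 4 groups were KOPT-K1 with DMSO, KOPT-K1 with SAHM1 at 20 µM, HPB-ALL with DMSO and HPB-ALL with SAHM1 at 20 µM, all treated for 24 hours in 24-well plates in RPMI with serum and antibiotics. SAHM1 is a hydrocarbon-stapled peptide derived from a Mastermind co-activator, made to block assembly of the NOTCH transcription complex, and DMSO is its solvent. Each line is a single established leukaemia culture from 1 patient, so the 3 cultures of a group measure the spread between cultures of that line. All p-values refer to spread between cultures alone. The main linear models (limma) and the SE of enzyme pairs pool this spread over the 4 groups. Both lines therefore share 1 SE per gene.

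Serine is made from the glycolytic intermediate 3-phosphoglycerate by PHGDH, PSAT1 and PSPH in turn. Serine hydroxymethyltransferases then pass its side-chain carbon to tetrahydrofolate, which leaves glycine. The cytosol and the mitochondrion each hold their own set of folate enzymes, and the carbon units are used for purines, thymidylate and methionine. Dividing leukaemia cells draw on these products, and antifolate drugs that act on the pathway are used against lymphoblastic leukaemia. Transcription factors of the amino acid and endoplasmic reticulum stress response, above all ATF4, are known to drive several of these genes.

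Promoters of 4 enzyme genes are shown first, since 3 of them responded in KOPT-K1 (PHGDH, PSAT1 and MTHFD2) while the mean of MTHFD1L did not. That mean leaves out probe sets 225520_at and 231094_s_at, which name MTHFD1L beside other genes. They were lower in KOPT-K1, with log2 changes of -1.85 and -1.15, so the response of MTHFD1L is not settled. Each is the 250 bases before the annotated transcription start in RefSeq GRCh38.p14, read 5′ to 3′ on the gene's strand. The positions are chr1:119711684-119711933 for PHGDH, chr9:78296875-78297124 for PSAT1, chr2:74198365-74198614 for MTHFD2 and chr6:150866236-150866485 for MTHFD1L, all on the plus strand, and the last is 1 of 4 annotated starts of its gene. Capitals mark matches to TGATGNAA, a core of the C/EBP-ATF response element, or to CACGTG, the E-box bound by MYC and other factors.
PHGDH promoter: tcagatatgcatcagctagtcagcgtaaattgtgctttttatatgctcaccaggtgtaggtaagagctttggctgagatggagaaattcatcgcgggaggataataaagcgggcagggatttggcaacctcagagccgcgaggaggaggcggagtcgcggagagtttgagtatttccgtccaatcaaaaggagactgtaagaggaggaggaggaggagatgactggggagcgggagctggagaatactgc
PSAT1 promoter: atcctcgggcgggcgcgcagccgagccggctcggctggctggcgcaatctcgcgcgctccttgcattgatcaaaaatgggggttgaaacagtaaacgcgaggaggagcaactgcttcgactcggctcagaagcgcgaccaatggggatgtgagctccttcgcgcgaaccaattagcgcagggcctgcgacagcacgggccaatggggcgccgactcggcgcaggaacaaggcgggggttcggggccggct
MTHFD2 promoter: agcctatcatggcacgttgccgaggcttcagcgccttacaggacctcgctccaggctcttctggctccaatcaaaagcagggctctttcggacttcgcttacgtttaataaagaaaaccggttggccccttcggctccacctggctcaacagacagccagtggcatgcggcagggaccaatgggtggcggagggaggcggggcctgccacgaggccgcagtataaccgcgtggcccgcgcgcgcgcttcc
MTHFD1L promoter: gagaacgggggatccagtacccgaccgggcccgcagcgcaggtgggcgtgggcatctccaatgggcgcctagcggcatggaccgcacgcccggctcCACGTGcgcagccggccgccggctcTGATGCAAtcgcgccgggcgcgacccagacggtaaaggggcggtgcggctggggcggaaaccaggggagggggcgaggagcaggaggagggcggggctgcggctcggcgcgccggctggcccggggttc
TGATGNAA was searched on both strands, as itself or as TTNCATCA, and CACGTG reads the same on both. Windows were given for 7 of the 10 genes, and TGATGNAA was found in 1 of these, MTHFD1L, 129 bases before the start. For comparison, 1104 of 35116 promoter windows of this length in the table held it, or 3.14%. CACGTG was found in 2 of the 7, 15 bases before the start of MTHFD1 and 154 bases before this start of MTHFD1L, against 6.34% of all windows. Counted per gene, as the enzymes are here, 3.89% of the 27305 genes in the table held TGATGNAA in at least 1 window and 7.73% held CACGTG. The TGATGNAA and CACGTG matches do not overlap. These are matches of letters within these windows.

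In KOPT-K1, SAHM1 lowered 4 of the 10 enzymes by about a factor of 2 or more: PHGDH and PSAT1 of serine synthesis and SHMT2 and MTHFD2 of the mitochondrial folate pathway. In HPB-ALL none of the 4 was lower, and PSAT1 and MTHFD2 rose instead, as PSPH did by less in a call that most alternatives lost. Under quantile normalization of the deposited log2 ratios the 4 falls were smaller, between -1.01 and -0.60 on the log2 scale. Both cytosolic folate enzymes, the mitochondrial ALDH1L2 and thymidylate synthase passed no test in either line when the probe sets of a gene were averaged. All changes are log2 differences of the SAHM1 arrays from the DMSO arrays, tested with limma and adjusted by Benjamini-Hochberg over the 19775 genes, with an adjusted p under 0.05 called a change. In KOPT-K1, 4 enzymes fell and 0 rose, also 0 at an unadjusted p under 0.05 in the limma fit, where 13.2% of all genes fell and 5.85% rose. Quantile normalization cut the genes called in KOPT-K1 from 3761 to 136, so these shares are given for the deposited scale alone. It gives the DMSO arrays, which are ratios to their own mean, the same distribution as the SAHM1 arrays. The part of that step in the cut was not tested. With 136 genes called, the shares do not carry over to the quantile-normalized scale. In HPB-ALL 3 rose and 0 fell (1 at an unadjusted p under 0.05), where 4.96% of all genes rose and 4.38% fell. The median change over the 10 enzymes was -0.15 in KOPT-K1 and 0.08 in HPB-ALL, beside 0 and -0.02 over all genes.

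**Figure D1:**
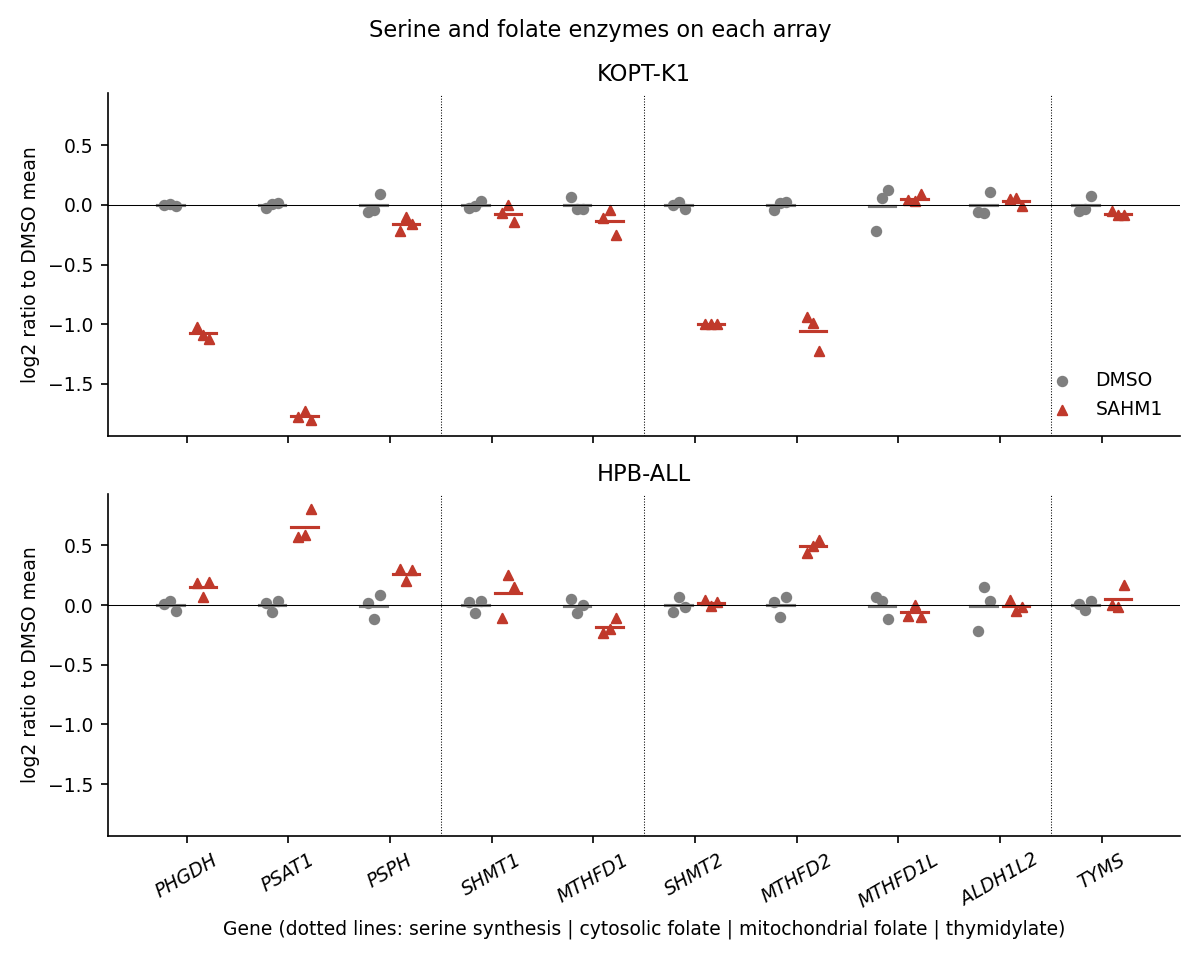
Log2 ratio of each of the 10 enzyme genes to its DMSO mean within the line, for the 3 DMSO arrays (circles) and 3 SAHM1 arrays (triangles) of KOPT-K1 (upper panel) and HPB-ALL (lower panel), with bars at the group means. In KOPT-K1 the SAHM1 arrays of PHGDH, PSAT1, SHMT2 and MTHFD2 lie between -1.80 and -0.94, and in HPB-ALL those of PSAT1 and MTHFD2 lie between 0.44 and 0.80.

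PHGDH encodes phosphoglycerate dehydrogenase, the first and committing step of serine synthesis. Its log2 ratios on the SAHM1 arrays of KOPT-K1 were -1.02, -1.09 and -1.12, while the DMSO arrays lay between -0.006 and 0.005. The groups lay far apart, and the fall was 2.11-fold (log2 change -1.08 ± 0.06 SE, limma adjusted p = 2.58e-07, n = 3 per group), the 40th largest of all genes. In HPB-ALL the SAHM1 arrays were at 0.18, 0.07 and 0.19 and the DMSO arrays at 0.01, 0.04 and -0.05. All SAHM1 arrays of HPB-ALL were thus above its DMSO arrays, but the change of 0.15 ± 0.06 SE did not pass (limma adjusted p = 0.141), with a 95% interval from 0.02 to 0.28. PHGDH rests on 1 single-symbol probe set. A further probe set, 212995_x_at, is annotated with PHGDH and with MZT2A and MZT2B, and it was at 0.36, 0.32 and 0.32 on the SAHM1 arrays of KOPT-K1, a rise of 0.34 ± 0.07 SE (limma adjusted p = 0.00718), against -0.04 ± 0.07 SE in HPB-ALL. Which of the 3 genes it reads cannot be told from the annotation. Counted for PHGDH as well, it brought the mean change in KOPT-K1 to -0.37 (limma adjusted p = 0.000505) and the difference between the lines to 0.42 (limma adjusted p = 0.00227), an alternative chosen after the values were seen.

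PSAT1 encodes phosphoserine aminotransferase, the second step. Its SAHM1 arrays in KOPT-K1 were at -1.78, -1.73 and -1.80, against -0.03 to 0.02 with DMSO. This was the deepest fall of the 10 enzymes and the 11th of all genes, 3.41-fold (log2 change -1.77 ± 0.07 SE, limma adjusted p = 2.53e-08). In HPB-ALL its SAHM1 arrays were at 0.57, 0.59 and 0.80 and its DMSO arrays between -0.06 and 0.03. The groups were again separate, now in the other direction, with a 1.57-fold rise (0.65 ± 0.07 SE, limma adjusted p = 0.000174), the 89th largest rise of all genes. Both of its probe sets gave these directions, with changes of -1.92 and -1.63 in the first line and of 0.54 and 0.76 in the second.

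PSPH encodes phosphoserine phosphatase, the last step. In KOPT-K1 its SAHM1 arrays were at -0.22, -0.10 and -0.16 and its DMSO arrays at -0.06, -0.04 and 0.09. The groups did not overlap, and the change of -0.16 ± 0.07 SE did not pass (limma adjusted p = 0.144, 95% interval -0.31 to -0.003). In HPB-ALL the SAHM1 arrays were at 0.30, 0.20 and 0.29, above the DMSO arrays at 0.02, -0.12 and 0.09, and PSPH rose by 0.27 ± 0.07 SE on the log2 scale (limma adjusted p = 0.0325). That call was lost when HPB-ALL DMSO replicate 1 or 2 or SAHM1 replicate 1, 2 or 3 was left out (limma adjusted p from 0.051 to 0.135). It was also lost under quantile normalization, with the median of the probe sets, with the 18S or control transcript level in the model, and with HPB-ALL fitted alone (limma adjusted p from 0.0603 to 0.616).

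The 3 probe sets of PSPH differed in KOPT-K1. Probe set 205194_at fell by 0.86 (limma adjusted p = 7.09e-05 over 54675 probe sets), with SAHM1 arrays at -0.98, -0.77 and -0.83, whereas 205048_s_at and 244819_x_at were at 0.25 and 0.14 and passed no test. The suffixes _s and _x mark probes that match several transcripts, so these 2 may read related sequences as well. In HPB-ALL the 3 probe sets were at 0.32, 0.31 and 0.17, and none passed alone (limma adjusted p = 0.0518, 0.0996 and 0.447). The mean of PSPH in KOPT-K1 thus joins 1 probe set that fell with 2 that did not.

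SHMT2, the mitochondrial serine hydroxymethyltransferase, takes the carbon unit from serine inside the mitochondrion. The SAHM1 arrays of KOPT-K1 were at -0.995, -1.001 and -0.999, and the DMSO arrays were between -0.03 and 0.03. The 2.00-fold fall (log2 change -0.997 ± 0.054 SE, limma adjusted p = 2.61e-07) was the 53rd largest, and its 3 probe sets gave -1.24, -0.86 and -0.89. In HPB-ALL the SAHM1 arrays were at 0.04, -0.005 and 0.02, inside the range of the DMSO arrays from -0.05 to 0.06. The change there was 0.02 ± 0.05 SE (limma adjusted p = 0.874), and its 95% interval from -0.10 to 0.14 leaves out a fall of the size seen in KOPT-K1.

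SHMT1 encodes the cytosolic enzyme of the same reaction. In KOPT-K1 its SAHM1 arrays were at -0.07, -0.003 and -0.15, overlapping the DMSO arrays at -0.03 to 0.03, with a change of -0.07 ± 0.08 SE (limma adjusted p = 0.615, 95% interval -0.25 to 0.11). In HPB-ALL the SAHM1 arrays spread from -0.11 to 0.26 around DMSO arrays from -0.07 to 0.03, with a change of 0.10 ± 0.08 SE (limma adjusted p = 0.553, interval -0.08 to 0.29). The 2 groups overlapped in both lines. These values leave out a pair of probe sets annotated with SHMT1 and MIR6778. Probe set 209980_s_at was at -0.39 ± 0.12 SE in KOPT-K1 (limma adjusted p = 0.0497) and at -0.07 ± 0.12 SE in HPB-ALL (limma adjusted p = 0.849). Probe set 224954_at was at -0.11 and 0.02 in these lines and passed no test.

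MTHFD2 encodes the mitochondrial methylenetetrahydrofolate dehydrogenase and cyclohydrolase of proliferating cells. Its SAHM1 arrays in KOPT-K1 were at -0.94, -0.99 and -1.23, against -0.05 to 0.03 with DMSO. It fell 2.07-fold (log2 change -1.05 ± 0.08 SE, limma adjusted p = 4.14e-06), the 46th largest fall. In HPB-ALL its SAHM1 arrays were at 0.44, 0.50 and 0.54 and its DMSO arrays from -0.10 to 0.07. No array overlapped in either line, and MTHFD2 rose 1.41-fold in HPB-ALL (0.50 ± 0.08 SE, limma adjusted p = 0.00221). Its probe sets gave -0.80 and -1.31 in KOPT-K1 and 0.55 and 0.44 in HPB-ALL, where the second did not pass alone (limma adjusted p = 0.0605).

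MTHFD1 encodes the trifunctional cytosolic enzyme that interconverts the carbon units. Its SAHM1 arrays in KOPT-K1, at -0.113, -0.042 and -0.249, were just below the DMSO arrays, whose lowest was at -0.036, and the change of -0.13 ± 0.07 SE did not pass (limma adjusted p = 0.202, 95% interval -0.28 to 0.02). In HPB-ALL the SAHM1 arrays at -0.24, -0.20 and -0.10 were below the DMSO arrays at -0.07 to 0.05, and the change of -0.18 ± 0.07 SE did not pass either (limma adjusted p = 0.147, interval -0.33 to -0.03). Of its 2 probe sets, 202309_at was lower in both lines, by -0.29 in KOPT-K1 (limma adjusted p = 0.0181) and by -0.30 in HPB-ALL (limma adjusted p = 0.0314). The other, 239846_at, was at 0.02 and -0.05. The responses of MTHFD1 in the lines differed by -0.04 (limma adjusted p = 0.809).

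MTHFD1L encodes the mitochondrial formate-producing synthetase, and its values depend on which probe sets are read. Through the 2 probe sets annotated with MTHFD1L alone, the SAHM1 arrays of KOPT-K1 were at 0.04, 0.03 and 0.09, inside the wide range of the DMSO arrays from -0.22 to 0.12. The change was 0.06 ± 0.09 SE in KOPT-K1 (limma adjusted p = 0.656, 95% interval -0.12 to 0.25) and -0.06 ± 0.09 SE in HPB-ALL (limma adjusted p = 0.772, interval -0.24 to 0.13). A pair of further probe sets is annotated with MTHFD1L on chromosome 6 and with LOC101928195 and LOC100996643, transcribed pseudogenes on chromosome 9. Probe set 225520_at was at -1.89, -1.82 and -1.84 on the SAHM1 arrays of KOPT-K1, a 3.60-fold fall (log2 change -1.85 ± 0.08 SE, limma adjusted p = 1.3e-07), and at -0.06 ± 0.08 SE in HPB-ALL (limma adjusted p = 0.759). Probe set 231094_s_at was at -1.04, -1.46 and -0.97 in KOPT-K1, a 2.22-fold fall (limma adjusted p = 8.33e-05), and at -0.30 ± 0.12 SE in HPB-ALL (limma adjusted p = 0.202). Which of the 3 genes these probes read cannot be told from the annotation. Counted for MTHFD1L as well, they turned its mean change in KOPT-K1 to -0.72 (limma adjusted p = 7.52e-06), an alternative chosen after the values were seen.

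ALDH1L2 encodes the mitochondrial formyltetrahydrofolate dehydrogenase. Its SAHM1 arrays were between -0.005 and 0.06 in KOPT-K1 and between -0.05 and 0.04 in HPB-ALL, inside the DMSO ranges in both. The changes were 0.04 ± 0.09 SE (limma adjusted p = 0.792, 95% interval -0.15 to 0.23) and 0.001 ± 0.09 SE (limma adjusted p = 0.998, interval -0.19 to 0.19). TYMS encodes thymidylate synthase, which spends a folate carbon to make thymidylate and is the target of fluoropyrimidines. In KOPT-K1 its SAHM1 arrays, at -0.05, -0.08 and -0.09, overlapped DMSO arrays at -0.05 to 0.08, with a change of -0.07 ± 0.06 SE (limma adjusted p = 0.508, interval -0.21 to 0.07). In HPB-ALL its change was 0.05 ± 0.06 SE (limma adjusted p = 0.744, interval -0.09 to 0.19).

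Taking arrays rather than tests, the SAHM1 arrays of KOPT-K1 all lay below its DMSO arrays for 6 of the 10 enzymes and above them for 0, where 21.6% and 13.5% of all genes did so. In HPB-ALL they lay above for 4 enzymes and below for 1, against 13.4% and 15.7% of all genes. Over single probe sets in KOPT-K1, 10 of the 23 were lower and 0 higher (1 at an unadjusted p under 0.05 in limma), beside 9.79% and 4.77% of all probe sets. In HPB-ALL 3 of the 23 were higher and 1 lower, beside 3.09% and 2.06%. In the difference between the lines 9 were higher in HPB-ALL and 0 lower (also 0 at an unadjusted p under 0.05 in limma), beside 8.50% and 3.22%.

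**Figure D2:**
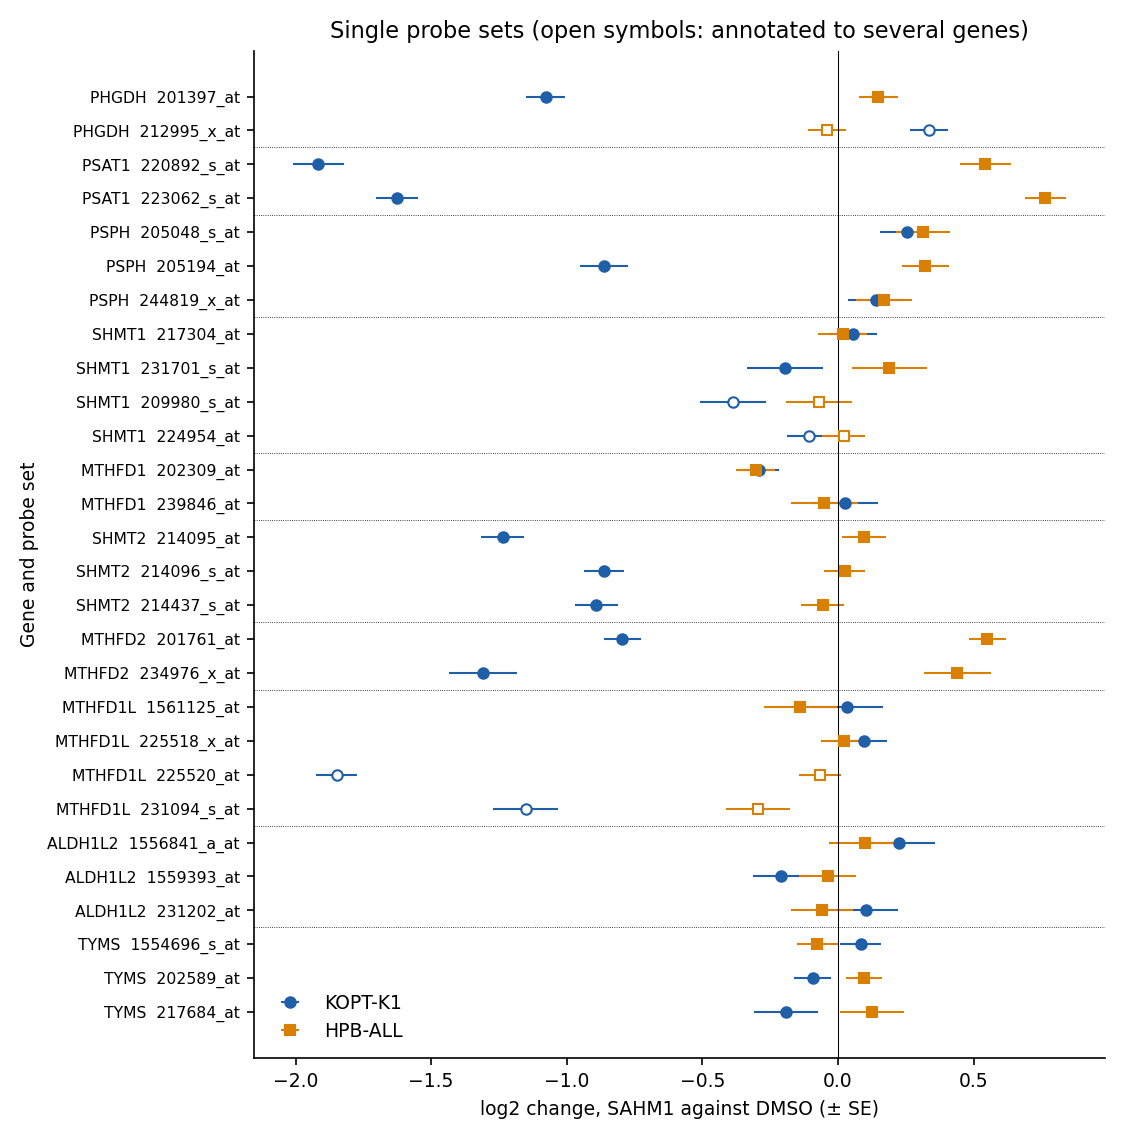
Log2 change with SAHM1 (± SE, limma) of the 23 probe sets annotated with 1 enzyme gene (filled) and of the 5 annotated with several genes (open), in KOPT-K1 (circles) and HPB-ALL (squares). All probe sets of PSAT1, SHMT2 and MTHFD2 fell in KOPT-K1, those of MTHFD2 by unlike amounts (-0.80 and -1.31). PHGDH, PSPH, SHMT1, MTHFD1 and MTHFD1L each have a probe set called lower in KOPT-K1 beside others not called lower. For SHMT1 the others ran from -0.195 to 0.056. For SHMT1 and MTHFD1L those called lower are annotated with several genes (open).

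The response of the 2 lines was then compared directly, as the HPB-ALL change minus the KOPT-K1 change in the same limma fit. Of the 10 enzymes, 5 differed, all higher in HPB-ALL, where 11.4% of all genes were higher and 5.41% lower. PSAT1 differed most, by 2.43 ± 0.10 SE on the log2 scale (limma adjusted p = 3e-08), the 12th largest such difference of all genes. MTHFD2 followed with 1.55 ± 0.11 SE (adjusted p = 3.91e-06), PHGDH with 1.23 ± 0.08 SE (adjusted p = 1.85e-06) and SHMT2 with 1.02 ± 0.08 SE (adjusted p = 5.63e-06), all by limma. PSPH differed by 0.42 ± 0.10 SE (limma adjusted p = 0.0127), and its probe set 205194_at by 1.19 (limma adjusted p = 0.000149). The PSPH difference was not called under quantile normalization, with the median of its probe sets, or with the 18S or control transcript level in the model (values from 0.15 to 0.42, limma adjusted p from 0.188 to 0.425). Differences for SHMT1, MTHFD1, MTHFD1L, ALDH1L2 and TYMS ran from -0.12 to 0.17 and did not pass.

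**Figure D3:**
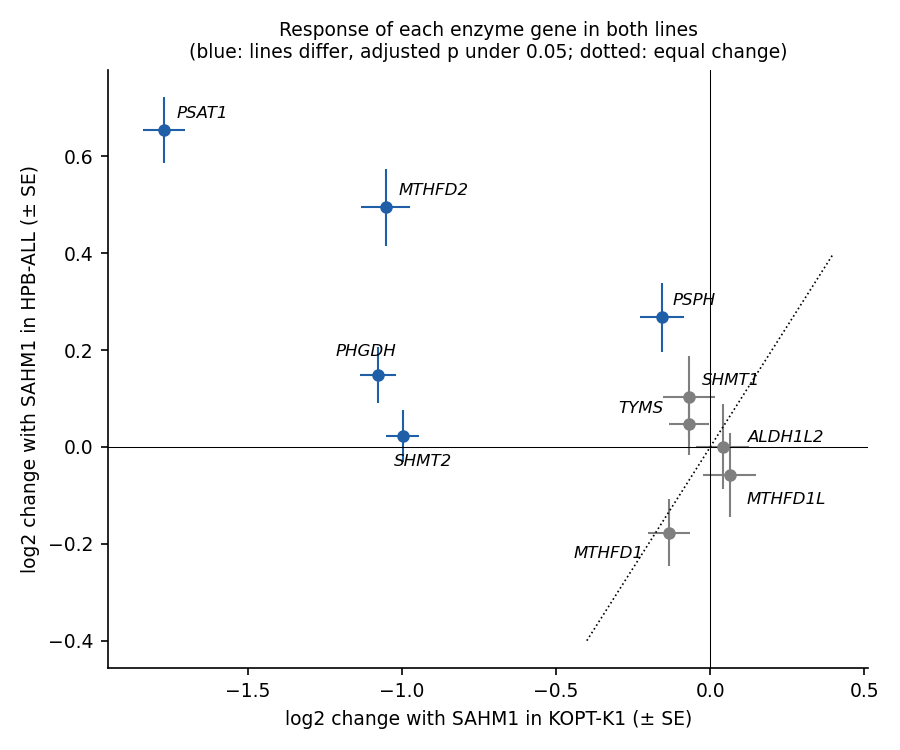
Log2 change with SAHM1 in HPB-ALL (vertical axis) against that in KOPT-K1 (horizontal axis) for the 10 enzyme genes, with ± SE bars. PSAT1 and MTHFD2 lie at the upper left of the plot, with a fall in KOPT-K1 and a rise in HPB-ALL, PHGDH and SHMT2 lie at a fall near -1 with HPB-ALL changes of 0.15 and 0.02, and 5 genes lie near the origin (grey).

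Cytosolic and mitochondrial enzymes of matching steps were set against each other within each array. SHMT2 minus SHMT1 was -0.930, -0.997 and -0.853 on the SAHM1 arrays of KOPT-K1, far below the DMSO arrays, and 0.15, -0.26 and -0.13 on those of HPB-ALL, around them. The shift was -0.93 ± 0.10 SE in KOPT-K1 and -0.08 ± 0.10 SE in HPB-ALL, and the responses differed by 0.85 ± 0.15 SE. Relabelling treatment within the lines gave p = 0.075 (exact two-sided permutation test, adjusted over the 3 pairs 0.11). That relabelling tests for no response in either line, so it does not say whether the responses were equal. Relabelling the lines among the SAHM1 arrays, added after the values were seen, gave p = 0.1, the smallest that 3 against 3 arrays allow in an exact permutation test. The difference was 1.37 without the probe sets whose suffix marks shared probes, and 0.94 without HPB-ALL SAHM1 replicate 2, where the exact permutation p for treatment labels was 0.015 and 0.045. Over the 12 arrays left out in turn it ran from 0.73 to 0.94, with p from 0.045 to 0.095 in that permutation test.

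MTHFD2 minus MTHFD1 was -0.83, -0.95 and -0.98 on the SAHM1 arrays of KOPT-K1 and 0.68, 0.70 and 0.65 on those of HPB-ALL. The mitochondrial enzyme thus fell against the cytosolic one in KOPT-K1 by -0.92 ± 0.06 SE and rose against it in HPB-ALL by 0.67 ± 0.06 SE. Within a line the exact permutation p was 0.1 for both, the smallest that 3 against 3 arrays can give. The responses differed by 1.59 ± 0.08 SE. Relabelling treatment within the lines gave p = 0.005 (exact two-sided permutation test, the smallest of 400 relabellings, adjusted over the 3 pairs 0.015), and relabelling the lines among the SAHM1 arrays gave p = 0.1, again the smallest possible. MTHFD1L minus MTHFD1 differed between the lines by -0.08 ± 0.18 SE (exact permutation p = 0.755 for treatment labels), and by 0.64 with the probe sets of several genes counted for MTHFD1L (exact permutation p = 0.015). Of the 2 cytosolic enzymes 0 were called in either line (1 of them at an unadjusted p under 0.05 in limma, MTHFD1 in HPB-ALL), and of the 4 mitochondrial enzymes 2 fell in KOPT-K1 and 1 rose in HPB-ALL. Over all genes 13.2% fell in KOPT-K1 and 4.96% rose in HPB-ALL, so with 2 and 4 genes these counts set no difference between the compartments.

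**Figure D4:**
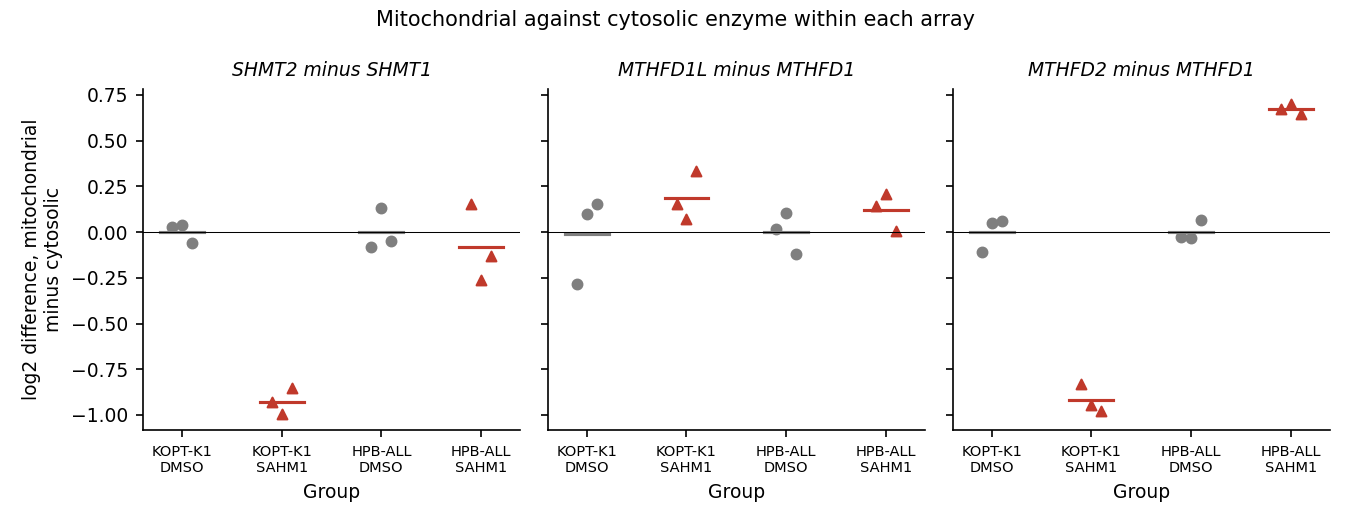
Log2 value of the mitochondrial minus the cytosolic enzyme within each array, for 3 pairs of genes (panels) and the 4 groups, with bars at the group means. MTHFD2 minus MTHFD1 lies between -0.98 and -0.83 on the SAHM1 arrays of KOPT-K1 and between 0.65 and 0.70 on those of HPB-ALL.

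PHGDH, PSAT1, SHMT2 and MTHFD2 had like profiles over the 12 arrays, with Pearson's r from 0.927 to 0.992 between them, and PSPH was less like them, from 0.64 with SHMT2 to 0.847 with MTHFD2. The coefficient was 0.992 between PHGDH and SHMT2, 0.991 between PSAT1 and MTHFD2 and 0.98 between PHGDH and PSAT1. These coefficients describe 4 groups of arrays with a shared reference in each line, so they mostly repeat the group means. Among all other genes the closest to PSAT1 was SLC7A11, the cystine transporter (r = 0.996 over 12 arrays), followed by CEBPB (0.995) and RASA2 (0.991). SLC7A11 fell by 2.09 in KOPT-K1 and rose by 0.85 in HPB-ALL on the log2 scale, and it was also the closest to MTHFD2 (0.994), before TMEM263 (0.993) and SLC1A4 (0.990). PHGDH was closest to the branched-chain aminotransferase BCAT1 (0.995) and to IARS1 and GARS1 (0.995 and 0.994), which charge isoleucine and glycine onto tRNA. SHMT2 was closest to the amino acid transporter SLC7A3 and the translation repressor EIF4EBP1 (both 0.997), and to BCAT1 (0.996). BCAT1 fell by 2.08 in KOPT-K1 and was at 0.10 in HPB-ALL (limma adjusted p = 0.392). The closest genes to PSPH were PAXIP1-DT (0.967), SPIN4 (0.964) and NEDD1 (0.962). SHMT1, MTHFD1, MTHFD1L, ALDH1L2 and TYMS, whose gene means passed no test, had closest coefficients from 0.895 to 0.948, with ZDBF2, DDX31, TBC1D8B, LINC00892 and C19orf44 in that order.

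Genes around the pathway were read from lists. Over all genes 13.2% fell and 5.85% rose in KOPT-K1, and 4.38% fell and 4.96% rose in HPB-ALL. Of 14 genes of the ATF4 response and other regulators, 10 fell in KOPT-K1 and 0 rose (also 0 at an unadjusted p under 0.05 in limma), with a list median of -0.34. The transcription factor CEBPB fell by 1.44 ± 0.06 SE (adjusted p = 2.75e-08), the asparagine synthetase ASNS by 1.33 ± 0.07 SE (adjusted p = 2.26e-07) and the stress factor DDIT3 by 0.99 ± 0.07 SE (adjusted p = 2.26e-06), all by limma. The 2 probe sets of ASNS gave -2.79 and 0.12, and without the first, whose suffix marks shared probes, ASNS was not called. In HPB-ALL 5 of the 14 rose and 3 fell, with a median of 0.06. The stress pseudokinase TRIB3 rose by 0.84 ± 0.08 SE (limma adjusted p = 0.000124) and CEBPB by 0.58 ± 0.06 SE (limma adjusted p = 0.000154). ATF4 itself was called in both lines, at -0.36 ± 0.06 SE in KOPT-K1 (limma adjusted p = 0.00147) and at 0.23 ± 0.06 SE in HPB-ALL (limma adjusted p = 0.0299). MYC, a NOTCH target that also acts on serine and folate genes, was lower in both, at -0.69 in KOPT-K1 and -0.65 in HPB-ALL (limma adjusted p = 6.16e-05 and 0.000218), and its responses in the 2 lines differed by 0.05 ± 0.10 SE.

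Of 14 genes that carry serine or glycine across membranes or use them, 7 fell in KOPT-K1 and 0 rose (also 0 at an unadjusted p under 0.05 in limma; median -0.22). The neutral amino acid transporters SLC1A5, SLC1A4 and SLC38A1 changed by -1.13 ± 0.11, -0.92 ± 0.06 and -0.86 ± 0.06 SE (limma adjusted p = 3.05e-05, 2.16e-06 and 2.34e-06). In HPB-ALL 1 rose and 3 fell (median -0.03). The riser was SLC1A4, at 0.45 ± 0.06 SE (limma adjusted p = 0.00104), and among those that fell were SPTLC2 of sphingolipid synthesis and PTDSS1 of phosphatidylserine synthesis, at -0.21 and -0.22 (limma adjusted p = 0.0326 and 0.0347). Both calls were lost under quantile normalization (limma adjusted p = 0.152 and 0.196) and with the control transcript level in the model (limma adjusted p = 0.0925 and 0.0775). Leaving out any 1 HPB-ALL array left 1 or 2 of this list called there, and leaving out KOPT-K1 SAHM1 replicate 2 left 4 called in KOPT-K1.

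Of 13 genes of glycine cleavage and the methionine cycle, 6 fell in KOPT-K1 and 0 rose (also 0 at an unadjusted p under 0.05 in limma; median -0.28). Cystathionine beta-synthase, CBS, which draws serine into cysteine synthesis, fell by 1.13 ± 0.07 SE (limma adjusted p = 9.17e-07), although 1 of its 3 probe sets was at 0.11. Methionine synthase MTR, which accepts the folate methyl group, and MTRR, which keeps MTR active by reducing its cobalamin, were at -0.88 ± 0.09 and -0.90 ± 0.06 SE (limma adjusted p = 7.63e-05 and 1.29e-06). The MTR call was lost under quantile normalization (limma adjusted p = 0.0707). In HPB-ALL 3 fell and 0 rose (2 at an unadjusted p under 0.05 in limma; median -0.08). They were MAT2A and AHCY of the methionine cycle, at -0.48 ± 0.06 and -0.43 ± 0.07 SE, and GCSH of glycine cleavage, at -0.30 ± 0.06 SE (limma adjusted p = 0.000565, 0.00265 and 0.0115). The GCSH call was lost without HPB-ALL DMSO replicate 3 (limma adjusted p = 0.0548) and under quantile normalization (limma adjusted p = 0.0776). With the 18S level in the model all 3 calls were lost (limma adjusted p = 0.163, 0.457 and 0.332). Both probe sets of GCSH carry a suffix that marks shared probes, so it has no value without them.

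Of 10 nucleotide genes beside TYMS, 4 fell and 2 rose in KOPT-K1 (median -0.05), and 2 fell in HPB-ALL while 0 rose (1 at an unadjusted p under 0.05 in limma; median 0.02). ATIC, which spends formyl-folate in purine synthesis, was lower in both lines, at -0.56 ± 0.06 SE in KOPT-K1 and -0.43 ± 0.06 SE in HPB-ALL (limma adjusted p = 0.000128 and 0.00138). DCTD, which supplies deoxyuridylate to TYMS, was lower in both as well, at -0.35 ± 0.06 and -0.38 ± 0.06 SE (limma adjusted p = 0.00158 and 0.00174). Both rises in KOPT-K1, the thymidine and thymidylate kinases TK1 and DTYMK at 0.26 and 0.21 (named after their values were seen), were lost under quantile normalization, with the control transcript level in the model and with KOPT-K1 fitted alone. They were also lost without any 1 of KOPT-K1 DMSO replicates 1 and 3 and SAHM1 replicate 3. GART, an earlier purine enzyme that also uses formyl-folate, fell by 0.42 ± 0.06 SE in KOPT-K1 (limma adjusted p = 0.00106). The KOPT-K1 calls of DCTD and GART were lost under quantile normalization (limma adjusted p = 0.178 and 0.213). They were also lost with the control transcript level in the model (limma adjusted p = 0.0814 and 0.065). Of 9 folate cycle and transport genes measured, 0 were called in KOPT-K1 (2 higher and 3 lower at an unadjusted p under 0.05 in limma; median -0.02). In HPB-ALL 1 was called, the reduced folate carrier SLC19A1 at -0.36 ± 0.07 SE (limma adjusted p = 0.00658; median -0.07).

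**Figure D5:**
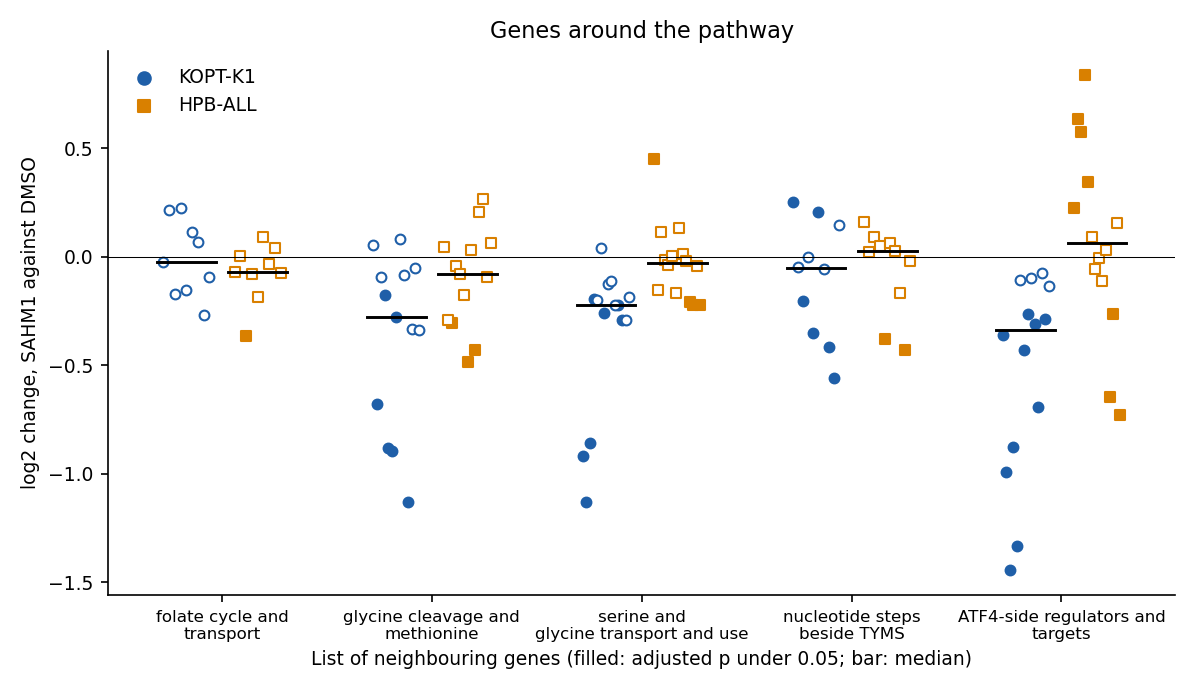
Log2 change with SAHM1 of the genes of 5 neighbouring lists, in KOPT-K1 (circles) and HPB-ALL (squares), filled where called by limma, with bars at the list medians. The ATF4 list has the widest spread, from -1.44 in KOPT-K1 to 0.84 in HPB-ALL, and the folate cycle and transport list the fewest calls, 0 and 1.

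Several measures of the arrays moved with the treatment. The 18S ribosomal RNA probe sets were higher on the SAHM1 arrays of HPB-ALL by 2.19 on the log2 scale (exact two-sided permutation p = 0.1, the smallest 3 against 3 can give), with its DMSO arrays spread from -1.65 to 1.05. The added control transcripts were higher on the SAHM1 arrays of KOPT-K1 by 0.83 (exact permutation p = 0.1), and the difference between the 5′ and 3′ probe sets of ACTB moved as well, with a shift of -0.17 in KOPT-K1 and one of -0.24 in HPB-ALL (exact permutation p = 0.1 for both). With the 18S level in the model, PSAT1 in HPB-ALL was at 0.67 ± 0.12 SE (limma adjusted p = 0.0437), MTHFD2 at 0.49 ± 0.13 SE (adjusted p = 0.231) and PSPH at 0.26 (adjusted p = 0.616). The last 2 calls were thus lost, while their sizes moved little. In that model 2 genes of the 5 neighbouring lists were still called in HPB-ALL, CEBPB and TRIB3. With the control transcripts in the model the 4 falls in KOPT-K1 ran from -1.67 to -0.88 and were still called. The part of the ACTB shift in these results was not tested. Under quantile normalization the 4 falls were still called (limma adjusted p from 4.23e-05 to 0.00322). In KOPT-K1 that scaling left 5 genes of the ATF4 list called, 3 of serine and glycine transport and use, 2 of glycine cleavage and methionine and 1 of the nucleotide genes.

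The deposited ratios hold no levels, so the T-cell identity of the lines cannot be read from them. Of 10 T-cell markers, 1 rose and 1 fell in KOPT-K1 and 2 rose and 2 fell in HPB-ALL. Of 9 B-cell, myeloid and erythroid markers, 1 rose in KOPT-K1 (MS4A1, by 0.32) and 0 fell (also 0 at an unadjusted p under 0.05 in limma), and 0 were called in HPB-ALL (0 also at an unadjusted p under 0.05 in limma). Their part in the results was not tested.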

How the data were processed

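Gene expression was measured on 12 arrays of 3 cultures in each of 4 groups, mapped from the sample titles. The deposited values are linear ratios that the authors made from RMA values, RMA being named in the submitters' processing notes and its version not given in the sources used here. Each probe set's DMSO arrays average 1 within 1e-06 in each line, so signal levels are lost, and no filter on low values was applied, contrary to what the plan allowed for. The number of arrays limits the precision. Ratios were turned to log2 without a pseudocount, and probe sets with 1 symbol (41097) were averaged to 19775 genes. Linear models (limma 3.58.1, R 4.3.3) took all 12 arrays with 4 groups as terms and were tested on simulated data. Pairs of enzymes were tested by exact permutation of treatment labels within lines. Named were the 10 enzymes, the 3 genes most correlated with each, and up to 3 called genes per list and line with the smallest p. Values of ATF4, TK1, DTYMK and MS4A1, and of MYC in KOPT-K1, were given outside that rule. Members and lists were chosen with earlier results of these data known. Alternatives were quantile normalization, probe sets without shared probes, the median of probe sets, a replicate block, covariates, each line alone and single arrays left out. Promoter windows came from RefSeq GRCh38.p14 for 7 of 10 genes. Same-numbered arrays of a line did not deviate together (correlations from -0.055 to 0.068), so the numbers were not taken to pair them.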

Additional observations from a re-analysis of the deposited data

Results flagged for a closer look

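The response to SAHM1 differed between the lines by limma's test of the difference itself for 5 enzymes, each higher in HPB-ALL than in KOPT-K1: PSAT1 by 2.425, MTHFD2 by 1.547, PHGDH by 1.227, SHMT2 by 1.019 and PSPH by 0.424 on the log2 scale (limma adjusted p from 3e-08 to 0.0127). MTHFD2 minus MTHFD1 differed by 1.59 in the same direction, with every SAHM1 array below the DMSO arrays in KOPT-K1 and above them in HPB-ALL (exact permutation p = 0.005 for treatment labels within lines and 0.1, the smallest possible, for line labels). Among probe sets that name a member together with other genes, which the gene means leave out, 4 passed limma's test in KOPT-K1. Probe sets 225520_at and 231094_s_at, annotated with MTHFD1L and both chromosome 9 pseudogenes, were at -1.849 and -1.152. Probe set 209980_s_at, annotated with SHMT1 and MIR6778, was at -0.388 (limma adjusted p = 0.0497), with SAHM1 arrays at -0.17, -0.73 and -0.27. Probe set 212995_x_at, annotated with MZT2A, MZT2B and PHGDH, was at 0.336 (limma adjusted p = 0.00718), opposite in sign to the single-symbol probe set of PHGDH.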

How the results depend on the processing

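Of 587 values of single enzymes under the alternatives, 548 kept their direction and their side of the threshold, 16 lost a call, 1 gained one and 22 changed sign. Of the 548, 348 came from leaving out single arrays. Leaving out an array of 1 line cannot move the change within the other line, so part of these were bound to keep their direction. The calls of PHGDH, PSAT1, SHMT2 and MTHFD2 in KOPT-K1 held in every setting run, though PSAT1 has no probe set without shared probes and so no value there. Without probe sets of shared probes, PSPH in KOPT-K1 was called at -0.86 (adjusted p = 3.24e-05), SHMT1 turned to 0.056 in KOPT-K1 and to -0.039 in the difference between lines, ASNS in KOPT-K1 turned to 0.12, and SHMT2 minus SHMT1 differed by 1.37 (exact permutation p = 0.015). With the median of probe sets PSPH in KOPT-K1 was at 0.094, ALDH1L2 was at -0.011 in KOPT-K1 and -0.010 in HPB-ALL and at 0.002 in the difference. With 18S as covariate, members called in HPB-ALL fell to 1 and the ALDH1L2 difference was 0.21. With the control transcripts as covariate, KOPT-K1 values were 0.048 for SHMT1, -0.11 for ALDH1L2 and 0.014 for TYMS, differences were -0.001, 0.18 and -0.004 for these, SHMT2 minus SHMT1 was 1.11 (exact permutation p = 0.045) and MTHFD1L minus MTHFD1 was 0.15. With probe sets of several symbols counted, chosen after seeing the data, MTHFD1L was at -0.72 in KOPT-K1 and 0.60 in the difference, PHGDH shrank to -0.37 and 0.42, and MTHFD1L minus MTHFD1 at 0.64. With line labels permuted among the SAHM1 arrays, also chosen after seeing the data, MTHFD2 minus MTHFD1 stayed at 1.59 with an exact permutation p of 0.1, the smallest that relabelling can give. With quantile normalization the differences of PHGDH, PSAT1, SHMT2 and MTHFD2 were 0.78, 1.49, 0.62 and 1.00.

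The PSPH call in HPB-ALL was lost under quantile normalization, the median of probe sets, the replicate block, both covariates and each line alone. With the replicate number as a block, PSPH in HPB-ALL was 0.27 (limma adjusted p = 0.053), no other enzyme's call changed, SPTLC2 and PTDSS1 in HPB-ALL (limma adjusted p = 0.0984 and 0.0862) and both rises among the nucleotide genes in KOPT-K1 lost their calls, and 3071, 1261 and 2616 of all genes were called in KOPT-K1, HPB-ALL and the difference. The numbers share only a number: 0 of 6 same-number correlations passed 0.1, and 3 arrays of 6 correlated best with their own number. The main counts of 3761, 1846 and 3323 genes became 136, 417 and 211 under quantile normalization, 2498, 1019 and 2270 without shared probes, 3493, 52 and 324 with 18S, 709, 1030 and 251 with the control transcripts, and 2525 and 1484 with each line alone. In HPB-ALL the count over all genes was 915, 996, 1124, 913 and 1117 without DMSO replicates 2 and 3 and SAHM1 replicates 1, 2 and 3. Leaving out single arrays, members called were 4 in KOPT-K1, 2 to 3 in HPB-ALL and 5 in the difference. SHMT2 minus SHMT1 ran from 0.73 to 0.94, MTHFD1L minus MTHFD1 from -0.16 to 0.058 and MTHFD2 minus MTHFD1 from 1.56 to 1.65. In those settings signs changed for MTHFD1L in KOPT-K1 (-0.04 to 0.13), SHMT2 in HPB-ALL (-0.004 to 0.054), ALDH1L2 in HPB-ALL (-0.10 to 0.083) and in the difference (-0.14 to 0.043), MTHFD1 in the difference (-0.10 to 0.003) and TYMS in HPB-ALL (-0.011 to 0.082). Of 12 neighbouring genes named in HPB-ALL, 10 lost their call with 18S as covariate, 3 under quantile normalization, 2 each with the replicate block, the control transcripts and each line alone, 1 with the median of probe sets and 1 without shared probes, and 12 values did so when single arrays were left out. Of 12 in KOPT-K1, 3 did under quantile normalization, 2 with the control transcripts and 1, ASNS, without shared probes. Except where fewer probe sets or arrays entered, the cause was not tested. A filter on low values and a pseudocount could not be run on ratios.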
